A study of Mus musculus with 32 samples.

Results

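Kirrel2, Kirrel3, Efna5 and Epha5 encode surface molecules with which olfactory sensory neurons sort their axons by neuronal activity. They are described here in sorted cells of the mouse olfactory mucosa. These 4 genes were taken by name from 19938 genes measured. Each was read by the 1 probe set (a group of short probes whose signals are summarised together) annotated to its symbol alone, and no probe set shared between genes named any of them.

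Kirrel2 and Kirrel3 are immunoglobulin-superfamily adhesion proteins that bind their own kind on neighbouring axons. Efna5 encodes ephrin-A5, a ligand anchored to the membrane by a lipid, and Epha5 encodes EphA5, a receptor tyrosine kinase that binds ephrin-A ligands, a contact known for repelling axons. Axons of neurons that express the same odorant receptor gather in shared glomeruli of the olfactory bulb. In that system Kirrel2 and EphA5 are known to be raised by channel-driven activity, and Kirrel3 and ephrin-A5 are known to be lowered by it, so that neighbouring glomeruli carry opposing sets.

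All samples came from adult S100a5-tauGFP mice, in which a fusion of tau and green fluorescent protein (GFP) reports S100a5, a gene that olfactory neurons switch on when active. Mice stayed singly in an odour chamber for 26 h of clean air and then for 14 h with 10 s pulses every 5 min. Fluorescence sorting split the cells into a GFP-positive and a GFP-negative fraction, and total RNA of each was hybridised to 1 array. There were 32 arrays in 8 groups of 4: GFP-positive or GFP-negative cells, after vehicle or odorant, in experiments with eugenol (a clove odorant) and in experiments with muscone (a musk). Each experiment gave 1 array of each of its 4 conditions, and the 8 experiments are called eugenol 1 to 4 and muscone 1 to 4. The labels do not say how many animals stand behind an array or whether arrays came from separate animals, so the p-values measure only the spread between these samples. The number of arrays limits the precision of every value.

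The sequences upstream of the transcription start are shown for Kirrel2, Efna5 and Epha5, the members with an entry in the promoter source, which held none for Kirrel3. As deposited, each of those shown was higher in GFP-positive than in GFP-negative cells in 16 of 16 pairs of arrays. The pairs were a vehicle and an odorant pair from each experiment. Kirrel3 was higher in 14 of 16. The share of all genes with 16 of 16 is not given here, and the direction of Efna5 depended on scaling, as described below. RefSeq's promoter table (build GRCm38.p6) held 3 of the 4 genes, and the 250 bases before the start are printed 5′ to 3′ on the gene's own strand. They lie at chr7:30457516-30457765 for Kirrel2, chr17:62881318-62881567 for Efna5 and chr5:84417383-84417632 for Epha5, all on the minus strand. Capitals mark a match to any of the 4 motifs named after the sequences.
Kirrel2: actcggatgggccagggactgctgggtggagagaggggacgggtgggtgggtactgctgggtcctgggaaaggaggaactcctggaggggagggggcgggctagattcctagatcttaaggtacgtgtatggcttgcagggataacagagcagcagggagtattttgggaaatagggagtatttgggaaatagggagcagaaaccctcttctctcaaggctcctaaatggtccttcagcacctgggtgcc
Epha5: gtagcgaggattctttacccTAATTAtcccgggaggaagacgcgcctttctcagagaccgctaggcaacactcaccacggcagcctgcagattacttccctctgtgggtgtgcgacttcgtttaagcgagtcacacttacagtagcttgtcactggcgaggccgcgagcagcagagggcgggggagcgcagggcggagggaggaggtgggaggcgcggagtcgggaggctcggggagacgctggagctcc
Efna5: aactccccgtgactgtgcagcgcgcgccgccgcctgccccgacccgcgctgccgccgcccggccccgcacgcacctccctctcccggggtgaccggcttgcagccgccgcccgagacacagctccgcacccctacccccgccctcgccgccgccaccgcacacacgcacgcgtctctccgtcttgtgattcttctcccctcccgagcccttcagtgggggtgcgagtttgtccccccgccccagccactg
The motifs, searched on both strands, were the cyclic AMP response element TGACGTCA, its part TGACG (which overlaps it), the Olf1/EBF core CCCNNGGG and the LIM homeodomain core TAATTA. Epha5 held 1 match, to TAATTA, from 230 to 225 bases before the start, and Kirrel2 and Efna5 held 0. Over all 32817 windows of that length, 1.55% held TGACGTCA, 17.75% TGACG, 11.82% CCCNNGGG and 4.85% TAATTA. The share of G and C was 74.8% for Efna5, 62.4% for Epha5 and 56.4% for Kirrel2, against a median of 52.4% over all windows.

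Values are log2 signals, and a difference of 1 is a factor of 2. The median of all probe sets ran from 6.72 to 8.81 over the arrays and differed between experiments, so levels are best read within an experiment. Arrays of muscone 3 were the dimmest for all 4 members and those of muscone 2 the next dimmest for the Kirrel genes, and without both experiments the 4 genes passed under vehicle as before (Kirrel2 0.87, Kirrel3 0.21, Efna5 0.36, Epha5 1.06). All 4 genes stood above the median of 167 vomeronasal receptor genes, taken as a mark of dim signal, on 32 of 32 arrays. Differences are those of limma with the experiment as a block and are given with their standard error (SE), and a gene passed at a Benjamini-Hochberg adjusted p under 0.05 over all 19938 genes. The vehicle, eugenol and muscone comparisons share arrays, and their values are set side by side without being treated as independent. Of the markers of mature neurons 9 of 9 passed as higher in GFP-positive cells under vehicle, and of immature neurons 6 of 6, progenitors 5 of 5, microvillous cells 4 of 4 and immune cells 6 of 6 passed as lower. Their medians were 0.47, −1.83, −2.71, −1.99 and −3.62, and over all genes 45.1% passed as higher and 21.9% as lower. Markers of horizontal basal cells (3 of 3), erythroid cells (2 of 2) and fibroblasts (3 of 4) passed as lower too. Fewer did so for Bowman's gland (1 of 3), endothelial cells (1 of 4, with 1 passing as higher) and ensheathing glia (0 of 3). The summed signal of the immune genes (log2) was 10.69 to 12.69 on GFP-positive and 13.95 to 15.12 on GFP-negative vehicle arrays, and that of the progenitor genes 8.21 to 10.36 and 11.32 to 12.89. Markers of sustentacular cells passed in 0 of 6 cases under vehicle, but 2 of 6 passed as lower after eugenol (median −0.59), where 18.3% of all genes did. Markers of respiratory ciliated cells passed as higher in 2 of 3 cases under vehicle (median 0.49), after eugenol (0.58) and after muscone (0.72). Of all genes 45.1%, 28.3% and 35.1% passed as higher in these comparisons. What part these cell types had in the members' differences was not tested. In bulk samples fewer cells of a type and less RNA per cell cannot be told apart.

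Under vehicle the fractions were compared to ask how the sorting genes stood in neurons whose reporter was on without added odorant. All 4 genes were higher in GFP-positive cells. Epha5 was highest at 2.16-fold, followed by Kirrel2 at 1.77-fold, Efna5 at 1.40-fold and Kirrel3 at 1.22-fold. Of all genes tested 67% passed in this comparison, 45.1% as higher and 21.9% as lower, so a count of 4 of 4 stands against a background in which such calls were common. By size, Epha5 lay above 98.1% of all genes by its difference, Kirrel2 above 96.8%, Efna5 above 91.1% and Kirrel3 above 76.7%.

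**Figure D1:**
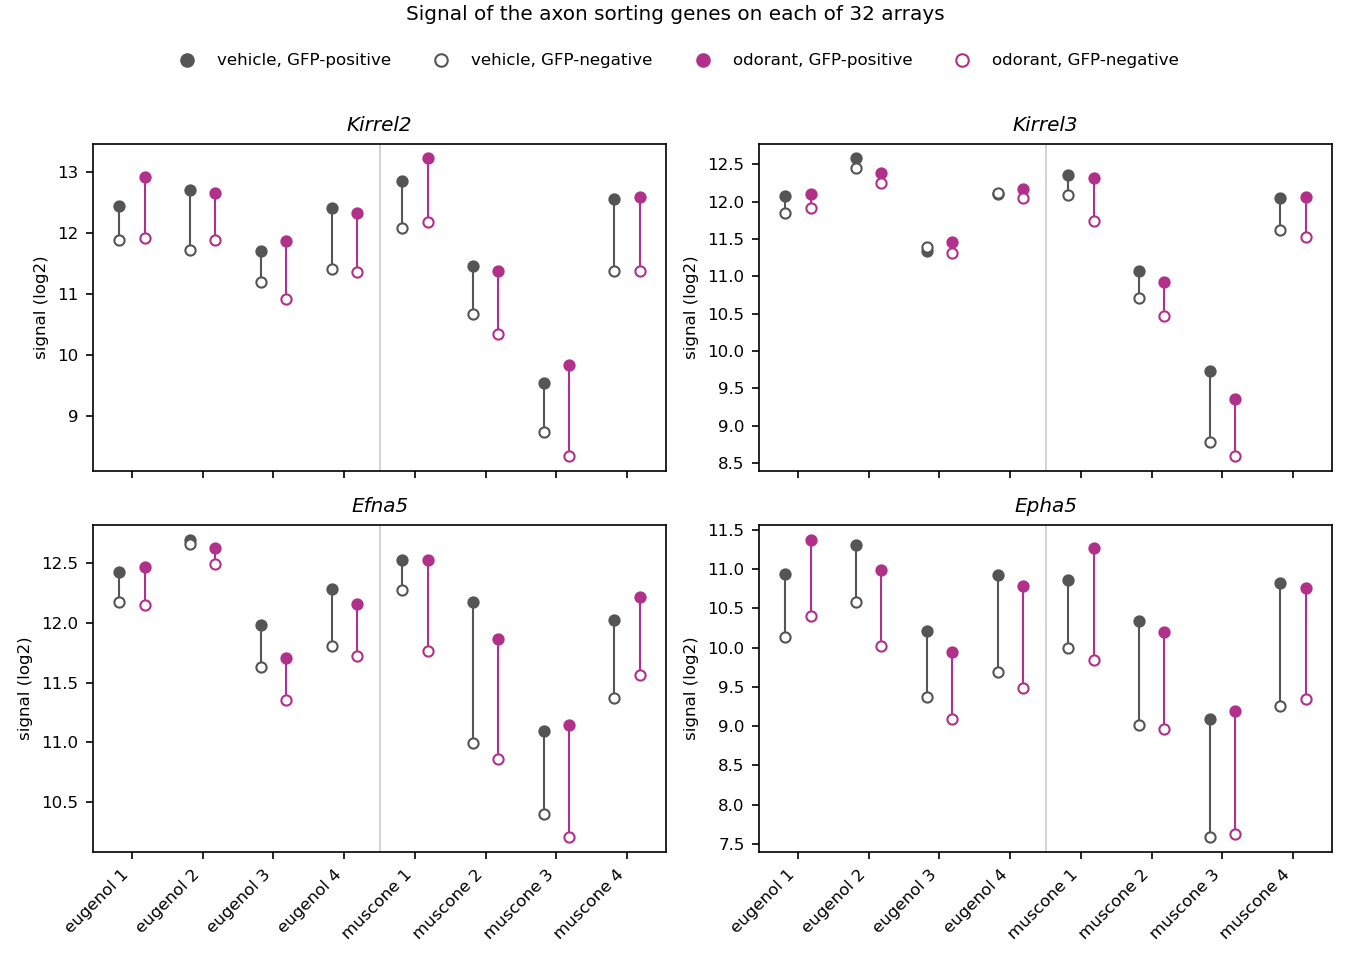
Log2 signal (vertical axes) of each gene on each of the 32 arrays, by experiment (horizontal axes). Filled points are GFP-positive and open points GFP-negative cells of the same experiment, joined by a line, with vehicle in grey and odorant in magenta. Filled points stand above open ones in 16 of 16 pairs for Kirrel2, Efna5 and Epha5 and in 14 of 16 for Kirrel3, and the level of all 4 genes is lowest in muscone 3.

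Kirrel2, the adhesion molecule known to rise with activity, was read under vehicle in eugenol 1 to 4 at 12.45, 12.71, 11.70 and 12.41 in GFP-positive cells and at 11.89, 11.72, 11.20 and 11.42 in GFP-negative cells. In muscone 1 to 4 it was read at 12.86, 11.46, 9.54 and 12.55 and at 12.08, 10.67, 8.73 and 11.39. Across experiments the fractions overlap, with muscone 3 dimmest, but within every experiment the GFP-positive array was higher. The difference was 0.83 (SE 0.074, 95% confidence interval 0.67 to 0.98, higher in 8 of 8 experiments, adjusted p = 3.76e-09). By series it was 0.76 ± 0.26 (SD, n = 4) in the eugenol and 0.89 ± 0.19 (SD, n = 4) in the muscone experiments, a contrast of 0.13 (interval −0.18 to 0.43) that did not pass (adjusted p = 0.686).

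Kirrel3, its paralogue known to fall with activity, had vehicle signals of 12.08, 12.58, 11.34 and 12.10 in GFP-positive and 11.85, 12.45, 11.40 and 12.12 in GFP-negative cells of eugenol 1 to 4. The corresponding signals in muscone 1 to 4 were 12.36, 11.07, 9.73 and 12.05 and 12.10, 10.71, 8.78 and 11.62. In the eugenol series the fractions nearly coincide and cross in experiments 3 and 4, while in the muscone series GFP-positive cells were higher each time, most in muscone 3 (0.95). The fitted difference was 0.29 (SE 0.062, interval 0.16 to 0.42, higher in 6 of 8, adjusted p = 3.96e-04). By series it was 0.071 ± 0.13 (SD, n = 4) with eugenol and 0.50 ± 0.31 (SD, n = 4) with muscone. The contrast between series was 0.43 (SE 0.12, interval 0.17 to 0.69), above 0 by its interval, but did not pass over all genes (adjusted p = 0.181).

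Efna5, the ephrin-A5 ligand, was read under vehicle at 12.42, 12.69, 11.98 and 12.28 in GFP-positive and at 12.17, 12.65, 11.63 and 11.80 in GFP-negative cells of eugenol 1 to 4. In muscone 1 to 4 the signals were 12.52, 12.17, 11.09 and 12.02 and 12.27, 10.99, 10.40 and 11.37. GFP-positive cells were higher within every experiment, by as little as 0.038 in eugenol 2 and by as much as 1.18 in muscone 2. The difference was 0.49 (SE 0.081, interval 0.32 to 0.65, 8 of 8, adjusted p = 2.31e-05). It was 0.28 ± 0.19 (SD, n = 4) in the eugenol and 0.69 ± 0.38 (SD, n = 4) in the muscone series. The contrast of 0.41 (SE 0.16, interval 0.077 to 0.75) had an interval above 0 but did not pass (adjusted p = 0.243).

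Epha5, the receptor for such ligands, had vehicle signals of 10.93, 11.31, 10.21 and 10.92 in GFP-positive and 10.13, 10.58, 9.37 and 9.69 in GFP-negative cells of eugenol 1 to 4. For muscone 1 to 4 they were 10.86, 10.34, 9.09 and 10.82 and 9.99, 9.01, 7.59 and 9.25. Its step (the GFP-positive minus the GFP-negative signal of an experiment) was wide in every experiment, and again the muscone 3 arrays were the dimmest. The difference was 1.11 (SE 0.094, interval 0.92 to 1.30, 8 of 8, adjusted p = 1.53e-09). It was 0.90 ± 0.22 (SD, n = 4) in the eugenol and 1.32 ± 0.32 (SD, n = 4) in the muscone series. Here too the interval of the contrast lay above 0 (0.42, SE 0.19, interval 0.032 to 0.81), and it did not pass (adjusted p = 0.286). In the contrast between series 0 of 19938 genes (0%) passed in limma, and 3104 had an unadjusted p under 0.05.

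The direction of these differences depended on what the arrays were scaled to. Centring each array on the median of its 9 mature neuron genes, or of its 1027 odorant receptor genes, gives a difference relative to that median. As deposited the 9 genes themselves differed by 0.12 to 0.81 (median 0.47), so a gene that turned to lower need not lie below each of them. The median signal of an array is not the median of the genes' differences. Efna5 turned to lower although its difference as deposited (0.49) lay above the median difference of the 9 genes. Epha5 remained higher with both centrings (0.45, adjusted p = 1.33e-05, and 0.47, 2.42e-05). Kirrel2 kept its sign but no longer passed (0.16, adjusted p = 0.0685, and 0.18, 0.0747). Kirrel3 turned to lower with both (−0.37, adjusted p = 2.11e-05, and −0.36, 3.41e-05). Efna5 also turned, to −0.17 with the first (adjusted p = 0.0370) and to −0.16 with the second, where it did not pass (adjusted p = 0.0719). The median of all genes moved from 0.14 as deposited to −0.52 and −0.51. Genes past the threshold went from 8990 higher and 4375 lower to 573 and 18166, and to 605 and 18062, and with centring on all probe sets they were 11680 and 3668. The experiment block also carried calls: without it only Epha5 passed under vehicle (adjusted p = 0.0464), and Kirrel2 (0.554), Efna5 (0.585) and Kirrel3 (0.916) did not.

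**Figure D2:**
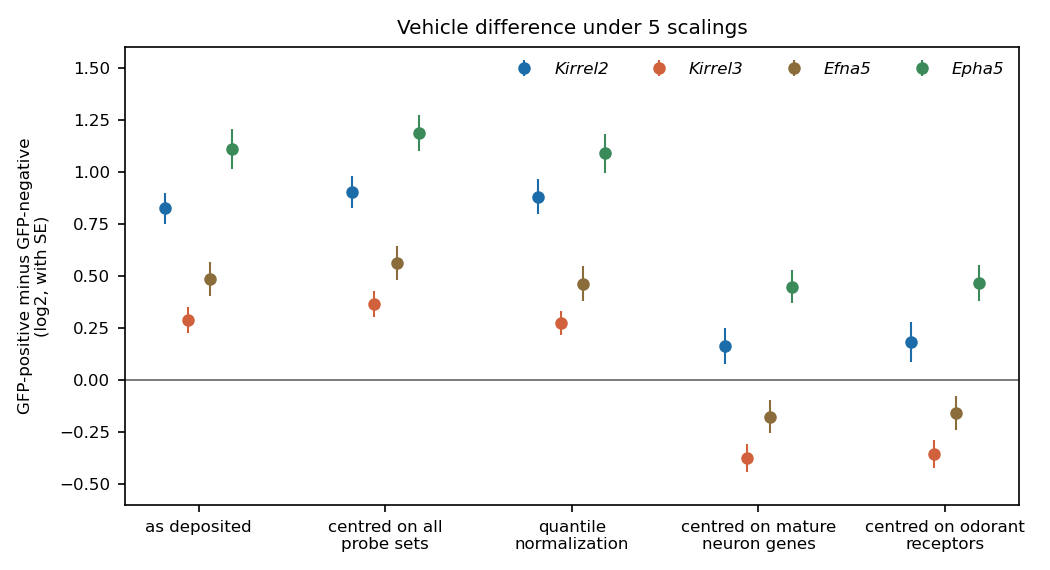
Vehicle difference between GFP-positive and GFP-negative cells (log2, vertical axis) under 5 scalings (horizontal axis), with the SE of the fit as bars. The 4 genes keep their order under each scaling, and Kirrel3 and Efna5 lie above 0 in the first 3 and below 0 with centring on mature neuron genes (−0.37 and −0.17) and on odorant receptors (−0.36 and −0.16).

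The difference between the steps of 2 genes does not change when whole arrays are centred. Under vehicle the step of Kirrel2 exceeded that of Kirrel3 by 0.54 ± 0.35 (SD, n = 8 experiments), in 7 of 8 experiments. The exception was muscone 3 (−0.14), the experiment with the lowest signals and the widest step of Kirrel3. After odorant the excess was 0.76 ± 0.098 (SD, n = 4) in the eugenol and 0.61 ± 0.12 (SD, n = 4) in the muscone experiments, and positive in 8 of 8. For the receptor and its ligand, the step of Epha5 exceeded that of Efna5 by 0.62 ± 0.24 (SD, n = 8) under vehicle and by 0.64 ± 0.20 (SD, n = 8) after odorant, in 8 of 8 experiments each time. Kirrel2 and Epha5 thus exceeded Kirrel3 and Efna5, respectively, in their step, apart from Kirrel2 in muscone 3. These are descriptions of the chosen genes and carry no test.

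After eugenol the same gate was compared again, in 4 experiments. Kirrel2 was 0.92 higher in GFP-positive cells (SE 0.10, 4 of 4, adjusted p = 3.80e-07) and Epha5 1.02 higher (SE 0.13, 4 of 4, adjusted p = 2.29e-06). Efna5 was 0.31 higher (SE 0.11, 4 of 4, adjusted p = 0.0329), a call that was lost without eugenol 1 (0.30, adjusted p = 0.0913), eugenol 3 (0.29, 0.0986) or eugenol 4 (0.26, 0.150). Kirrel3 did not pass (0.15, SE 0.088, 4 of 4, adjusted p = 0.155), but passed with centring on all probe sets (0.24, adjusted p = 0.0216) and with array weights (0.16, 0.0140). Thus 3 of 4 genes passed as higher, where 46.6% of all genes passed, 28.3% as higher and 18.3% as lower. Over all genes 5645 passed as higher and 3641 as lower as deposited, against 9424 and 3043 with centring on all probe sets, 518 and 16747 on mature neuron genes and 540 and 16561 on odorant receptors. Centring on mature neuron genes turned Kirrel3 to −0.44 and Efna5 to −0.29, and centring on odorant receptors to −0.43 and −0.28. Kirrel2 and Epha5 still passed as higher with both centrings, and their lowest values over all settings were 0.32 and 0.42. Without the experiment block 0 of the 4 passed, at adjusted p-values of 0.552 or higher.

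After eugenol Kirrel2 was read at 12.91, 12.66, 11.87 and 12.33 in GFP-positive and at 11.92, 11.89, 10.93 and 11.35 in GFP-negative cells. Kirrel3 had 12.11, 12.39, 11.46 and 12.17 and 11.92, 12.25, 11.31 and 12.05, which is a narrow step of 0.13 to 0.19 in all 4 experiments. Efna5 was read at 12.47, 12.62, 11.70 and 12.16 and 12.15, 12.49, 11.35 and 11.72. Epha5 had 11.37, 10.98, 9.94 and 10.79 and 10.40, 10.02, 9.10 and 9.49. Across experiments the fractions overlap for each of the 4 genes, and within each of the 4 experiments the GFP-positive array was higher for all of them.

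After muscone all 4 genes passed as higher in GFP-positive cells, where 56.6% of all genes passed, 35.1% as higher and 21.5% as lower. The 7005 higher and 4278 lower genes became 10182 and 3605 with centring on all probe sets, 540 and 18061 on mature neuron genes and 496 and 18257 on odorant receptors. The differences were 1.41 for Epha5 (SE 0.13, adjusted p = 1.10e-08), 1.19 for Kirrel2 (SE 0.10, 3.85e-09), 0.84 for Efna5 (SE 0.11, 2.09e-06) and 0.58 for Kirrel3 (SE 0.088, 7.21e-06). Each was higher in 4 of 4 experiments. Signals of Kirrel2 were 13.22, 11.38, 9.83 and 12.59 in GFP-positive and 12.18, 10.35, 8.35 and 11.37 in GFP-negative cells, and those of Kirrel3 were 12.32, 10.92, 9.35 and 12.06 and 11.74, 10.47, 8.59 and 11.53. Both Kirrel genes were brightest in muscone 1 and dimmest in muscone 3 in either fraction. Efna5 was read at 12.52, 11.86, 11.14 and 12.22 and 11.76, 10.86, 10.21 and 11.57, and Epha5 at 11.27, 10.20, 9.20 and 10.76 and 9.84, 8.97, 7.63 and 9.34. With centring on odorant receptors Kirrel2 was 0.25 (adjusted p = 0.0849), Efna5 −0.11 (0.358) and Kirrel3 −0.37 (9.58e-04), and with centring on mature neuron genes Efna5 was −0.065 and Kirrel3 −0.32. Kirrel2 still passed as higher with centring on mature neuron genes. Epha5 did so with both centrings, and its lowest value over all settings was 0.46. Without the experiment block 0 of the 4 passed, the lowest adjusted p being 0.107, for Epha5.

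Odorant and vehicle were compared within each fraction to ask whether the odorant altered the genes. No member passed in any of these comparisons. With eugenol in GFP-positive cells 0 of 19938 genes (0%) passed in limma, and 923 had an unadjusted p under 0.05. Kirrel2 differed there by 0.12 (interval −0.094 to 0.34, higher in 2 of 4), Kirrel3 by 0.01 (−0.17 to 0.19), Efna5 by −0.11 (−0.35 to 0.13) and Epha5 by −0.074 (−0.35 to 0.20). Per experiment the Kirrel2 difference was 0.46, −0.051, 0.16 and −0.084 in eugenol 1 to 4, highest in eugenol 1 and on either side of 0 in the others. In GFP-negative cells 0 genes (0%) passed and 466 had an unadjusted p under 0.05. The members there lay between −0.19 for Epha5 (interval −0.47 to 0.082) and −0.033 for Kirrel2 (−0.25 to 0.18), with Efna5 lower in 4 of 4 experiments (−0.14, −0.37 to 0.10).

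With muscone in GFP-positive cells 1 gene of 19938 (0.00502%) passed, the odorant receptor gene Olfr1434, and no member did. Kirrel2 differed by 0.15 (interval −0.064 to 0.37, higher in 3 of 4), Kirrel3 by −0.14 (−0.32 to 0.043, lower in 3 of 4), Efna5 by −0.018 (−0.26 to 0.22) and Epha5 by 0.076 (−0.20 to 0.35). Within arrays the muscone difference of Kirrel2 exceeded that of Kirrel3 in 4 of 4 experiments, by 0.29 ± 0.30 (SD, n = 4), a mean no larger than its spread. In GFP-negative cells 0 genes (0%) passed, with 1704 at an unadjusted p under 0.05. As deposited Kirrel3 was lower in 4 of 4 experiments, with differences of −0.36, −0.24, −0.18 and −0.092 in muscone 1 to 4, with a fitted difference of −0.22 (interval −0.40 to −0.035, adjusted p = 0.505). Its sign turned with centring on odorant receptors (0.065, adjusted p = 0.533), where all 4 members lay above 0, Epha5 farthest (0.27, 0.0637), and none passed. Kirrel2 (−0.15), Efna5 (−0.16) and Epha5 (−0.013) had intervals that included 0 as deposited.

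The change of the step between fractions with odorant joins both effects. For Kirrel2 it was positive in 4 of 4 muscone experiments, at 0.27, 0.23, 0.67 and 0.047, and the fit gave 0.31 (SE 0.15, interval −0.0012 to 0.61). The value was 0.18 without muscone 3, 0.16 without muscone 2 and 3, 0.17 once centred on mature neuron genes, and 0.031 once centred on odorant receptors. It did not pass over all genes (adjusted p = 0.985, unadjusted p = 0.0509), where 1 gene of 19938 (0.00502%), again Olfr1434, did. With eugenol the change was 0.16 (SE 0.15), positive in 2 of 4, and 0 genes (0%) passed, against 237 with an unadjusted p under 0.05. The other members had values of 0.028 to 0.12 with eugenol and of 0.078 to 0.14 with muscone, each with an SE of 0.12 to 0.19. With centring on odorant receptors the muscone values of these 3 members turned to between −0.20 and −0.13. Muscone and eugenol effects were also set against each other. In GFP-positive cells the members' contrasts ran from −0.15 for Kirrel3 to 0.15 for Epha5, and in GFP-negative cells from −0.15 to 0.18 for the same genes. None of these passed as deposited, with adjusted p-values of 0.831 or higher. Over all genes 1 (0.00502%, Olfr1434) passed in GFP-positive cells and 0 (0%) in GFP-negative cells, where 710 had an unadjusted p under 0.05 in limma.

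**Figure D3:**
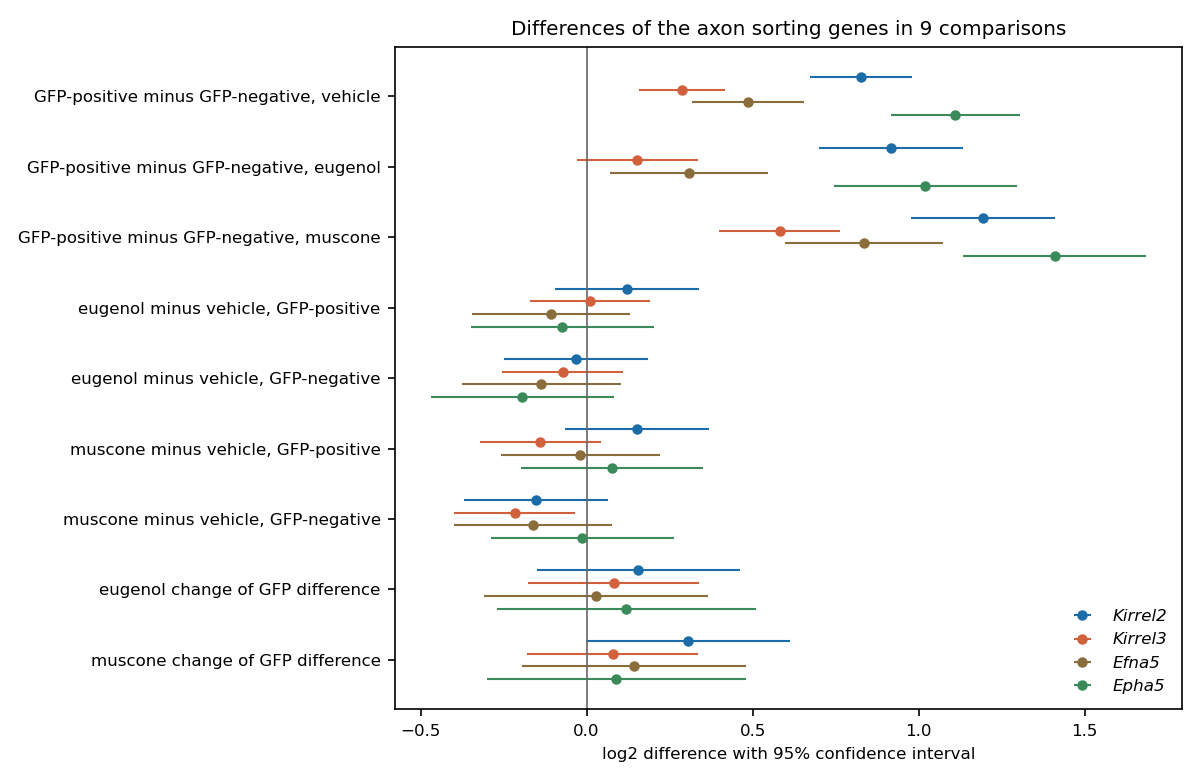
Fitted log2 differences (points) with 95% confidence intervals (bars) of the 4 genes in 9 comparisons (rows). The 3 comparisons of GFP-positive with GFP-negative cells lie to the right of 0, with values from 0.15 for Kirrel3 after eugenol to 1.41 for Epha5 after muscone, while the 6 odorant comparisons lie between −0.22 and 0.31.

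The relatives of these genes were described from lists of their families. Their counts stand against 45.1% of all genes higher and 21.9% lower under vehicle as deposited. With centring on mature neuron genes 2.87% of all genes passed as higher and 91.1% as lower, and on odorant receptors 3.03% and 90.6%. Without the experiment block 1 of the 25 genes of the 5 families below passed, Epha5. In the Kirrel and nephrin family 4 of 4 measured genes passed as higher under vehicle. Nphs1, nephrin, a partner of Kirrel proteins in kidney podocytes, was 0.97 higher (SE 0.088, adjusted p = 4.29e-09) and Kirrel, the founding member, 0.63 higher (SE 0.085, 1.40e-06). The family median was 0.73, against 0.14 over all genes. With centring on mature neuron genes 1 passed as higher (Nphs1, 0.31), 1 as lower (Kirrel3) and the median was 0.069, and with centring on odorant receptors the counts were the same and the median 0.086.

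Of 5 ephrin-A ligands 3 passed as higher and 2 as lower under vehicle (median 0.32). Efna5 was followed by Efna3 (0.38, adjusted p = 5.51e-04) and Efna2 (0.32, 0.00134), and Efna4 (−0.35, 4.30e-05, lower in 7 of 8 experiments) and Efna1 (−0.32, 0.0328, lower in 5 of 8) were lower. With centring on mature neuron genes 5 passed as lower, and with centring on odorant receptors 4, where most genes of the array did so. Among 3 ephrin-B ligands, which span the membrane, Efnb3 passed as higher (0.30), and Efnb2 (−0.33) and Efnb1 (−0.19) as lower. All 3 passed as lower with either centring on neuronal genes.

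Of 9 EphA receptors 4 passed as higher, 2 as lower and 3 did not pass (median 0.062), shares near those over all genes. Epha7 (0.84, SE 0.062, adjusted p = 1.81e-10) stood beside Epha5, both higher in 8 of 8 experiments. Epha8 was 0.23 higher (adjusted p = 0.00403), as was Epha10 (0.21, 0.0152). Epha2 was −0.23 (0.0192), and Epha4, a receptor that also binds ephrin-B ligands, was −1.07 (SE 0.14, 6.16e-07), lower in 8 of 8. With centring on mature neuron genes or on odorant receptors, 2 of the 9 passed as higher, Epha5 and Epha7 (0.17 and 0.19), and 7 passed as lower. Of 4 measured EphB receptors 3 passed as lower and 0 as higher (median −0.74): Ephb6, which lacks kinase activity (−0.95), Ephb4 (−0.78) and Ephb3 (−0.70). With centring on odorant receptors or on mature neuron genes all 4 passed as lower. Centring on all probe sets gave 3 higher and 1 lower for the ephrin-A ligands, 1 and 1 for the ephrin-B ligands, 5 and 1 for the EphA receptors and 1 and 3 for the EphB receptors, and quantile normalization turned the EphA median to −0.0051. Markers of progenitors and immune cells were lower in the same cells (medians of −2.71 and −3.62), and their part in the lower Eph and ephrin signals was not tested.

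**Figure D4:**
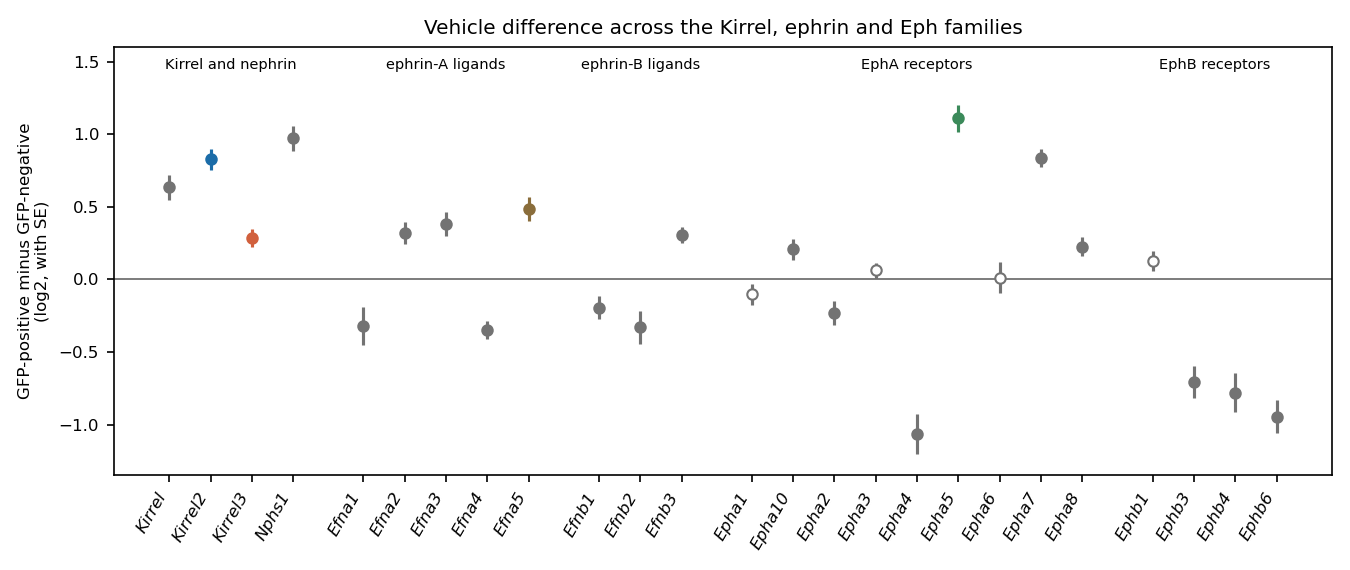
Vehicle difference between GFP-positive and GFP-negative cells (log2, vertical axis) with the SE of the fit for each measured gene of 5 families (horizontal axis), as deposited. Filled points passed and open points did not, and the described members are in colour. Epha5 (1.11), Nphs1 (0.97), Epha7 (0.84) and Kirrel2 (0.83) are highest, and Epha4 (−1.07) and Ephb6 (−0.95) lowest.

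Other molecules that segregate olfactory axons into glomeruli were set beside them, a list that includes genes known to follow activity. Under vehicle 5 of 6 passed as higher and 1 as lower (median 0.35), where 45.1% and 21.9% of all genes did, and without the experiment block Plxnc1 alone passed. Sema7a, a membrane-anchored semaphorin, was 0.78 higher (SE 0.071, adjusted p = 4.70e-09) and Pcdh10, a protocadherin, 0.79 higher (SE 0.14, 3.87e-05), both in 8 of 8 experiments. Pcdh17 (0.41), Pcdh19 (0.29) and Cntn4 (0.20) were higher too, and Plxnc1, the receptor for Sema7a, was −2.03 (SE 0.16, 6.22e-10), lower in 8 of 8. With centring on mature neuron genes or on odorant receptors 1 passed as higher (Sema7a, 0.12 and 0.14) and 4 as lower, and Pcdh10 did not pass (0.13 and 0.15). The effectors of Eph signalling had 2 of 6 higher and 3 lower (median −0.30): Ngef, the exchange factor ephexin (0.42), and Vav2 (0.33) were higher, while the exchange factor Vav3 (−1.44), the sheddase Adam10 (−0.60) and the kinase Fyn (−0.85) were lower. All 6 passed as lower with either centring on neuronal genes, near the 91.1% and 90.6% of all genes, so Ngef (−0.25 and −0.23) and Vav2 (−0.33 and −0.32) turned. Without the experiment block Vav3 alone passed.

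Genes whose pattern was most like each member were found by Pearson correlation over the 32 arrays after subtracting each experiment's mean. The arrays share the step between fractions, so these values describe likeness and carry no test. For Kirrel2 they were the odorant receptors Olfr1461 (r = 0.966) and Olfr1082 (0.964), the receptor Epha7 (0.965), Epha5 itself (0.963) and Ppp1r3c, a glycogen-targeting phosphatase subunit (0.963). For Epha5 they were the semaphorin Sema3e (0.988), the synaptic vesicle protein Sv2b (0.987), Limch1 (0.987), the sodium-calcium exchanger Slc8a1 (0.985) and Epha7 (0.984). The genes nearest to Kirrel3 were Scap (0.971), Git1 (0.958), Mapk8ip2 (0.953), Sh3glb2 (0.952) and Tmem104 (0.950), and those nearest to Efna5 were Tmem178b (0.970), 5730409K12Rik (0.962), Agpat3 (0.961), Mapre3 (0.961) and Flrt1 (0.961). Among the members Kirrel2 was most like Epha5 and least like Kirrel3 (0.764). Kirrel3 was more like Omp (0.917), the marker protein of mature olfactory neurons, than like any other member (0.764 to 0.830).

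The reporter's own gene was set beside the members. S100a5 was 0.43 higher in GFP-positive cells under vehicle (SE 0.15, 8 of 8, adjusted p = 0.0171) and Omp 0.27 higher (SE 0.066, 8 of 8, adjusted p = 0.00114). S100a5 did not pass after muscone (0.17, SE 0.21, 3 of 4, adjusted p = 0.511). Under vehicle it turned to −0.23 with centring on mature neuron genes and to −0.22 with centring on odorant receptors, and passed with neither. Over the 32 arrays Kirrel2 correlated at 0.456 with S100a5 and Epha5 at 0.514, Efna5 at 0.315 and Kirrel3 at 0.293, each below its value with Omp (0.817, 0.836, 0.845 and 0.917). S100a5 was dim in the muscone experiments, with group means of 5.80 to 6.30, at −1.82 to −1.25 against the array medians. In the eugenol groups its SD was 2.12 to 2.58, with group medians of 6.88 to 7.62 and highest arrays of 10.62 to 12.16. What part these levels had in the correlations of S100a5 was not tested.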

How the data were processed

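Sorted mucosal cells gave 32 arrays. The authors deposited log2 intensity values for 35556 probe sets, made with Affymetrix Expression Console per the submitters' processing notes; their background correction, normalization and genome build are not stated in those sources. Of these probe sets 21789 had 1 gene symbol, 1621 several and 12146 none. The probe set with the highest mean stood for a gene. The members and lists were chosen with earlier results of these data known.

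All 32 arrays entered 1 limma 3.58.1 fit (R 4.3.3) on 8 groups plus a block for experiment (18 residual degrees of freedom), tested on simulated data. Tests were two-sided. The block comes from a number shared by the titles of 4 arrays. Deviations from group means correlated at 0.201 to 0.914 for 48 of 48 pairs of arrays sharing it, all above 0.1. The members were named always. Up to 4 genes of each list were named by their vehicle p, and per member the 5 genes most alike by correlation; Efna1, Epha2, Epha10, Vav2, Pcdh19, Cntn4 and Olfr1434 were named after their values were seen, to complete small counts. The 4 motifs were searched in RefSeq promoter windows. Intervals are 95% confidence intervals from the fit. Alternatives changed the block, scaling, weights, dim-gene filter, probe-set rule and experiments included.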

Additional observations from a re-analysis of the deposited data

How the results depend on the processing

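Each of the 48 results (4 genes in 12 comparisons) was recomputed in 17 other ways, which gave 816 values: 786 kept their call or lack of one, 16 lost it, 2 gained it and 12 turned around. In 47 of the 786 neither value passed and the sign differed. Without the replicate block the fitted differences stay and their errors grow, and calls were lost under vehicle for Kirrel2 (0.83), Kirrel3 (0.29) and Efna5 (0.49). They were also lost after eugenol for Kirrel2 (0.92), Efna5 (0.31) and Epha5 (1.02) and after muscone for Kirrel2 (1.19), Kirrel3 (0.58), Efna5 (0.84) and Epha5 (1.41). The block changed no other call of a member. Centring on mature neuron genes gave Kirrel2 0.16, Kirrel3 −0.37 and Efna5 −0.17 under vehicle, Kirrel3 −0.44 and Efna5 −0.29 after eugenol, and Kirrel3 −0.32 and Efna5 −0.065 after muscone. Centring on odorant receptors gave 0.18, −0.36 and −0.16 for the same 3 genes under vehicle, −0.43 and −0.28 for Kirrel3 and Efna5 after eugenol, and Kirrel2 0.25, Kirrel3 −0.37 and Efna5 −0.11 after muscone. Epha5 kept its calls with both centrings. Kirrel2 kept its call after eugenol with both, and after muscone with centring on mature neuron genes. Kirrel3 after eugenol passed with centring on all probe sets (0.24) and with array weights (0.16). Leaving out 1 experiment moved Efna5 after eugenol between 0.26 and 0.37. Genes past the threshold fell from 13365, 9286 and 11283 (vehicle, eugenol, muscone) to 1668, 876 and 1338 without the block, and rose after eugenol and muscone to 17265 and 18601 with the first centring and 17101 and 18753 with the second. Quantile normalization and leaving out muscone 2 and 3 changed no call of a member. The filter on dim genes and the mean of probe sets changed none either, but they could not alter the members' signals. Each member was read by 1 probe set that stood above the dim mark on 32 of 32 arrays. Among comparisons with 0 or 1 genes past the threshold, centring on odorant receptors gave 10022 for muscone in GFP-negative cells and 13 for the muscone change of step. The contrast of vehicle steps between series gave 16 under the mature neuron centring, 126 with array weights and 42 when muscone 4 was left out, and no member passed in any of these. The cause of these changes was not tested.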

Other observations

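Genes of the olfactory transduction cascade, which turns odorant binding into a membrane current, were higher in GFP-positive cells under vehicle in 6 of 6 cases, with a median of 0.61, where 45.1% of all genes passed as higher and their median was 0.14. They included Ano2, the calcium-gated chloride channel (0.79), Cngb1, a subunit of the cyclic nucleotide-gated channel (0.73), Cnga4 (0.63) and Adcy3, the adenylyl cyclase (0.59). With centring on odorant receptors 0 passed as higher and 2 as lower, with a median of −0.034, and the same counts held with centring on mature neuron genes, a list that also holds Cnga2 and Ano2. The lower ones were Gnal (−0.38) and Cnga2 (−0.25) with centring on odorant receptors. Other genes raised by activity passed as higher in 3 of 3 cases, led by Lrrc3b (1.10) and Pcp4l1 (1.06). Both stayed higher with centring on odorant receptors (0.46 and 0.41). The list also holds S100a5 (0.43), whose reporter defined the sorted fractions, so its call was not independent of the sorting. With that centring S100a5 turned to lower and did not pass. Without the experiment block 0 of 6 and 1 of 3 (Pcp4l1) of these genes passed.

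Molecules that place olfactory axons along the axes of the bulb had 2 of 7 higher and 2 lower (median 0.023), where 45.1% and 21.9% of all genes passed. Slit1, a repellent ligand, was 0.56 higher, Plxna1 0.15 higher, Sema3a −0.70 and Sema3f −0.13. With centring on odorant receptors 0 passed as higher and 6 as lower, where 90.6% of all genes passed as lower, and without the experiment block 0 of 7 passed.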
